A study of Xenopus laevis with 3 samples.

Results

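The genes described here encode G protein-coupled receptors, some of their peptide ligands, and the proteins that carry and end the signal inside the cell, in the larval inner ear of *Xenopus laevis*. They were chosen by name: an Xl-PSID, as a probe set of the Affymetrix *X. laevis* Genome 2.0 array is called, was a member if the probe annotation gave it 1 gene symbol and that symbol began with a stem of the pathway, such as *gpr*, *adora*, *edn*, *gna*, *rgs* or *pde*. Of 32635 Xl-PSIDs on the array, 189 were members. They stood for 149 symbols, and for 120 genes once the L and S homeologs, the gene copies that *X. laevis* keeps from its allotetraploid ancestry, were joined. Of all Xl-PSIDs, 15495 carried 1 gene symbol and no control label, for 9271 genes, and these are the background used throughout. The study profiled the inner ear at several ages, and the values here come from its youngest, *s50*. Inner ears were taken from purchased larvae at stages 50 to 52, aged 15 to 21 days post-fertilization, with no strain, treatment or engineered allele named. The 3 arrays, s50_1, s50_2 and s50_3, held RNA pooled from 15, 38 and 24 animals, with 1, 1 and 0.7 µg of total RNA in the labelling reaction. All 3 were of 1 condition, so no comparison between conditions could be tested, and the spread given is that between pools. The older ages were not analysed here.

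A G protein-coupled receptor crosses the membrane several times and, when its ligand binds, lets a G alpha subunit take up GTP and part from its G beta and gamma partners. Alpha subunits of the Gs type raise cyclic AMP through adenylyl cyclases, those of the Gi type lower it, and those of the Gq type act on phospholipase C. RGS proteins speed the hydrolysis of GTP, receptor kinases and arrestins silence the receptor, and phosphodiesterases break down the cyclic nucleotides. In the mouse inner ear, inhibitory alpha subunits help to place the kinocilium and shape the hair bundle of sensory hair cells.

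Intensities were log2 values in arbitrary units of fluorescence (a.u.). Detection of an Xl-PSID meant an average of 4 or more over the arrays, the fluorescence intensity that the study's methods ask of an upregulated Xl-PSID, and detection of a gene meant that of its brightest Xl-PSID. Since probes differ in how they bind, no value below ranks a gene against another. Over the 27 *Bacillus subtilis* control probe sets, means lay between 1.85 and 2.13, which marks the floor of the scale. The tissue label was set against marker lists: 7 of 8 measured otic transcription factors were detected, with *pax8* at the floor (1.95 ± 0.02, SD, n = 3). Of 5 measured supporting cell and otic matrix genes 4 were detected, without *cldn14* (2.02 ± 0.03), and of the hair cell list only *myo6* had an Xl-PSID (12.65 ± 0.44). All 10 measured skeletal muscle genes, all 5 of cartilage and 3 of 4 of melanocytes were detected too. So were 10 of 11 measured genes of ganglion neurons, 5 of 6 erythroid, 4 of 5 leukocyte and 2 of 5 brain genes, but only 1 of 12 photoreceptor genes outside the members. Over all genes 80.5% were detected, so the shares of the otic lists do not by themselves mark the tissue.

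The larval ear gave signal for 66 of the 120 receptor and signalling genes (55.0%), against 80.5% of all genes, and of the 189 Xl-PSIDs 103 were (54.5%), against 73.3% of all Xl-PSIDs. The median of the means was 5.01 for members and 8.78 for all Xl-PSIDs. Of the 86 members not detected, 77 lay below 4 on every array, and 46 members had a mean at or under the highest control. Near the threshold, 17 members had a mean from 3 to under 5. These counts were not taken over all Xl-PSIDs, so they do not set the members apart. Just inside the threshold were *lpar1.L* (4.02), an *lpar4.L* Xl-PSID (4.46) and a *gng7.L* Xl-PSID (4.54), and just outside were *p2ry13.L* (3.99), an *rgs4.S* Xl-PSID (3.94), *p2ry4.L* (3.93) and *gng13.S* (3.88). In whole-organ RNA, fewer cells of a type and less RNA per cell cannot be told apart.

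**Figure D1:**
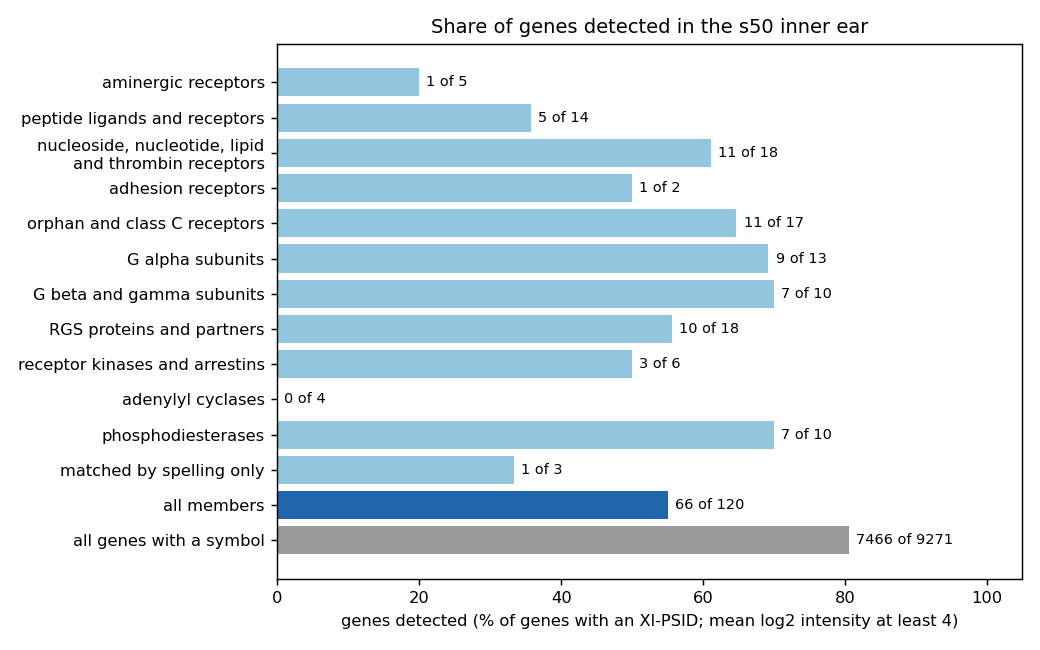
Share of genes detected (% of genes with an Xl-PSID, mean log2 intensity at least 4 over the 3 *s50* arrays) in each family, in all members and in all genes with a symbol; the counts stand beside the bars. Every family lies below the bar of all genes (7466 of 9271), from 0 of 4 adenylyl cyclases to 7 of 10 G beta and gamma subunits and 7 of 10 phosphodiesterases.

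Families differed in how many genes were detected. Among receptors and peptide ligands together 29 of 56 genes were detected (51.8%), and among the intracellular families 36 of 61 were (59.0%). The lowest shares were those of adenylyl cyclases, with 0 of 4 genes, of aminergic receptors, with 1 of 5 (20.0%), and of peptide ligands and receptors, with 5 of 14 (35.7%). G alpha subunits (9 of 13, 69.2%), G beta and gamma subunits (7 of 10, 70.0%) and phosphodiesterases (7 of 10, 70.0%) had the highest. With 2 to 18 genes in a family, 1 gene moves these shares by several percentage points or more, and they were not tested against each other.

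**Figure D2:**
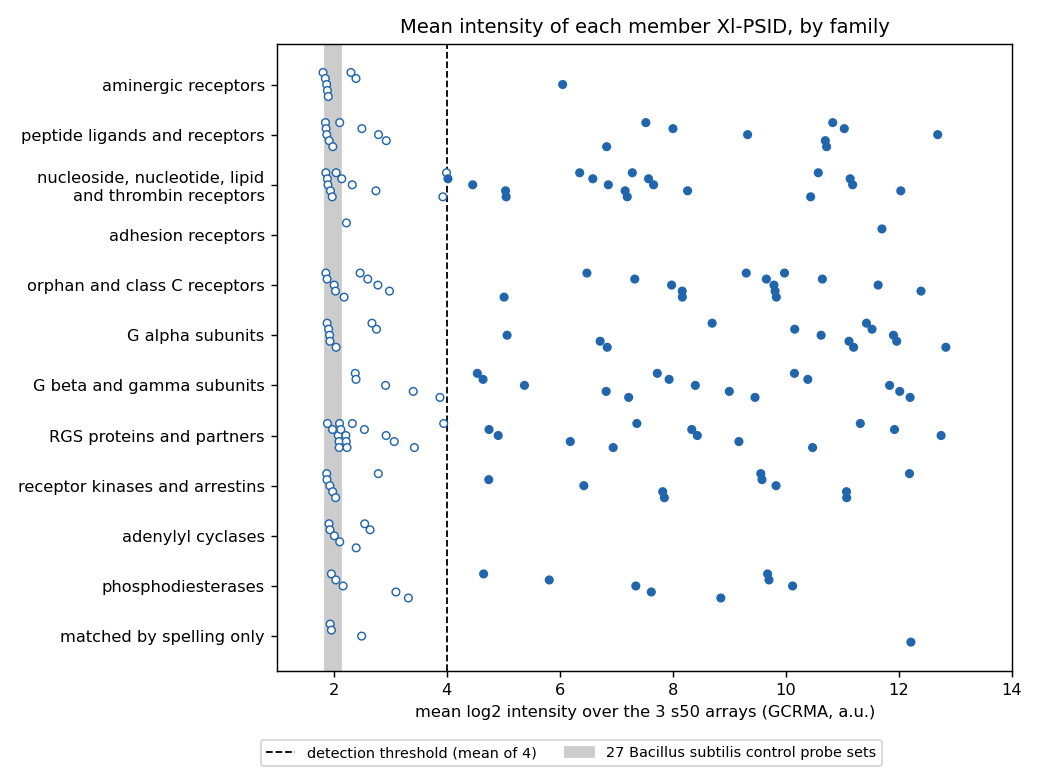
Mean log2 intensity (a.u.) over the 3 *s50* arrays of each of the 189 member Xl-PSIDs, by family; filled points are detected, open points are not, the dashed line is the threshold of 4 and the grey band the range of 27 *Bacillus subtilis* control probe sets. Most open points lie in or near the band, and detected Xl-PSIDs run from 4.02 to 12.83.

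Of the receptors for amine transmitters only *htr2b*, a serotonin receptor that couples to Gq in mammals, was detected. Its Xl-PSID read 5.14 on s50_1, 6.17 on s50_2 and 6.84 on s50_3 (mean 6.05 ± 0.86, SD, n = 3). It was lowest on s50_1, and its range exceeded 1.5. The dopamine receptor *drd2* (2.39 ± 0.13 for L) and the serotonin receptors *htr1a* (1.81 ± 0.01), *htr4* (1.89 ± 0.02) and *htr7l* (1.90 ± 0.02) were not detected on any array.

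Both endothelin receptors with an Xl-PSID were detected. *ednra*, the endothelin receptor that cranial neural crest needs in mice, had 4 Xl-PSIDs and all were detected. The L homeolog read 12.85, 12.66 and 12.55 on s50_1, s50_2 and s50_3 (12.68 ± 0.15). An *ednra.S* Xl-PSID read 10.85, 10.84 and 10.79, while another for the same homeolog read 7.82, 5.81 and 6.85. The arrays thus lay close together for the brighter Xl-PSIDs and apart, with s50_2 lowest, for the dimmer one. *ednrb2*, an endothelin receptor known from pigment cell precursors in birds, averaged 11.03 ± 0.65, lowest on s50_1 (10.39) and highest on s50_3 (11.70). All 3 detected melanocyte markers, *pmel*, *slc45a2* and *tyrp1*, were also lowest on s50_1 and highest on s50_3, as were 33.0% of all detected Xl-PSIDs. Summed linear intensities over the 4 measured markers were 14500, 19400 and 25600, and *mitf* was at the floor (2.12 ± 0.04). The part of melanocytes in the *ednrb2* values was not tested. The ligand *edn1* was not detected, at 3.99, 3.04 and 1.75, with s50_1 close to the threshold and s50_3 at the floor.

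Of 3 neuropeptide precursors among the members, *tac1* and *adcyap1* were detected and *vip* was not. *tac1*, which encodes the precursor of substance P, was detected through both homeologs, at 10.42, 11.47 and 10.20 for L and at 9.12, 9.72 and 9.12 for S. Both were highest on s50_2. *adcyap1*, the precursor of PACAP, a peptide that raises cyclic AMP through Gs-coupled receptors, read 8.57, 7.64 and 6.35 (7.52 ± 1.11). It was highest on s50_1 and differed by -1.75 from the mean of the other arrays on s50_3, while its receptor *adcyap1r1* was at the floor on every array (1.98 ± 0.01), as was *vip*, a related peptide (2.10 ± 0.05). *calcrl*, which forms receptors for CGRP and adrenomedullin together with RAMP proteins, read 8.38, 8.28 and 7.34, lowest on s50_3.

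Of the corticotropin-releasing hormone system 3 genes had an Xl-PSID, and none was detected. The hormone *crh* and its receptor *crhr1* had none under those symbols and were not analysed here. *crhr1.2*, a corticotropin-releasing hormone receptor, read 2.84, 2.04 and 2.61 (2.50 ± 0.41), *crhr2* averaged 1.85 ± 0.01 and *crhbp*, which binds and sequesters the hormone, 2.79 ± 0.53. *npy2r* (1.92 ± 0.01), *oprl1*, the nociceptin receptor (1.86 ± 0.01), and *sstr2*, a somatostatin receptor (1.88 ± 0.01), were at the floor too. Together with *edn1*, *adcyap1r1* and *vip* these make up the 9 peptide genes not detected.

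Receptors for nucleosides, nucleotides, lipids and thrombin formed the largest receptor family, with 11 of 18 genes detected (61.1%). Each of the 5 *lpar* and *s1pr* genes with an Xl-PSID, which encode receptors for lysophosphatidic acid and sphingosine 1-phosphate, was detected. *lpar4* read 12.25, 12.24 and 11.60 on its brightest Xl-PSID (12.03 ± 0.37), which can match several transcripts by its suffix. *lpar2* averaged 10.57 ± 0.15, *lpar6* 8.26 ± 0.56 and *lpar1* 7.19 ± 0.43 on their brightest. *s1pr1*, the sphingosine 1-phosphate receptor that vessels and lymphocytes use, read 10.71, 10.49 and 10.10 (10.44 ± 0.31). On these Xl-PSIDs of *lpar4* and *s1pr1* s50_3 was the lowest array. The other *lpar4* Xl-PSIDs read 6.38, 5.17 and 3.59, lowest on s50_3, and 4.25, 4.61 and 4.51, lowest on s50_1. The brightest *lpar6* Xl-PSID was lowest on s50_3, while the other read 5.52, 6.48 and 7.05, lowest on s50_1. The mouse gene *s1pr2*, needed for hearing, had no Xl-PSID under that symbol and was not analysed here.

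Protease-activated receptors split. *f2rl1*, which trypsin-like proteases activate, read 11.42, 11.41 and 10.71 for L and 11.16, 11.57 and 10.67 for S, lowest on s50_3 for both homeologs. *f2rl2* averaged 5.04 ± 0.43. The main thrombin receptor of mammals, *f2r*, was at the floor (1.89 ± 0.01).

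Both adenosine receptors with an Xl-PSID were detected. *adora1*, which couples to Gi, read 7.77, 7.73 and 6.34 (7.28 ± 0.82), with s50_3 apart from the others. *adora2a*, which couples to Gs, read 7.38, 7.90 and 7.42 through its L homeolog, while the S Xl-PSID averaged 2.74 ± 0.14. Of the 6 genes with a *p2ry* symbol 2 were detected. *p2ry1*, an ADP receptor, averaged 6.58 ± 0.38. *p2ry11.L*, an ATP receptor in humans, read 6.52, 7.89 and 8.56 on an Xl-PSID and 5.56, 7.17 and 7.83 on another. Both were lowest on s50_1, with differences of -1.71 and -1.94 from the other arrays. Their names differ only in the suffix, so they are not 2 separate readings. All 3 S Xl-PSIDs of *p2ry11* were at the floor (1.90 to 1.97).

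The other *p2ry* genes and both prostaglandin receptors were not detected. *p2ry13* (3.35, 4.99 and 3.64) and *p2ry4* (3.03, 4.17 and 4.58) passed 4 on some arrays, *p2ry10* averaged 2.33 ± 0.21, and *p2ry12*, which marks platelets and microglia in mammals, 2.04 ± 0.04. Among the prostaglandin E receptors *ptger2* averaged 2.14 ± 0.03 and *ptger3* 1.86 ± 0.01.

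Adhesion receptors had 2 genes on the array. *adgra2*, which helps vessels to invade the brain in mice, read 11.49, 11.61 and 11.99 (11.70 ± 0.26), and *adgrl4*, an endothelial receptor, was not detected (2.22 ± 0.06). The hair bundle and Schwann cell adhesion receptors *adgrv1* and *adgrg6* had no Xl-PSID under those symbols and were not analysed here.

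Orphan and class C receptors, which have no settled ligand or belong to the glutamate receptor class, were detected for 11 of 17 genes (64.7%). Genes were placed in this family by symbol, and whether each encodes a G protein-coupled receptor was not examined. Several of them encode proteins of inner membranes. *gpr107*, a Golgi protein, read 12.55, 12.27 and 12.35 through S and 10.79, 10.12 and 11.02 through L. *gpr137b*, a lysosomal membrane protein, read 12.21, 11.89 and 10.79 (11.63 ± 0.74), lowest on s50_3, and the related *gpr137c* read 10.23, 8.67 and 10.06, lowest on s50_2. *gpr155*, also lysosomal, averaged 8.16 ± 0.52.

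*gpr143*, a receptor of pigment cell melanosomes, was detected through 3 Xl-PSIDs that ranked the arrays differently. Its brightest, which can match several transcripts by its suffix, averaged 9.81 ± 0.22 and was highest on s50_1. The S Xl-PSID read 7.65, 7.63 and 8.64, lowest on s50_2 and highest on s50_3. The other L Xl-PSID read 6.87, 7.47 and 7.64, lowest on s50_1 and highest on s50_3, as the melanocyte markers were. *gpr85*, a brain receptor that is highly conserved among vertebrates, read 7.65, 6.83 and 4.95 (6.48 ± 1.39). It had the largest range among the detected genes of this family, with a difference of -2.29 on s50_3 from the other arrays. *gprc5b*, a class C orphan, read 8.99, 7.45 and 8.05 on an Xl-PSID, while its other Xl-PSID averaged 2.46 ± 0.01.

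The remaining detected genes were *gpr157* (9.97 ± 0.37), *gpr180* (9.83 ± 0.64), *gpr146* (9.30 ± 0.55) and *gpr75*, whose L Xl-PSID averaged 9.79 ± 0.17 and whose S Xl-PSID 5.01 ± 0.13. Not detected were *gpr160*, *gpr182*, *gpr45*, *gpr83.2*, *gprc5a* and *gprc5cl2*, with means of 1.86 to 2.98 on their brightest Xl-PSIDs.

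**Figure D3:**
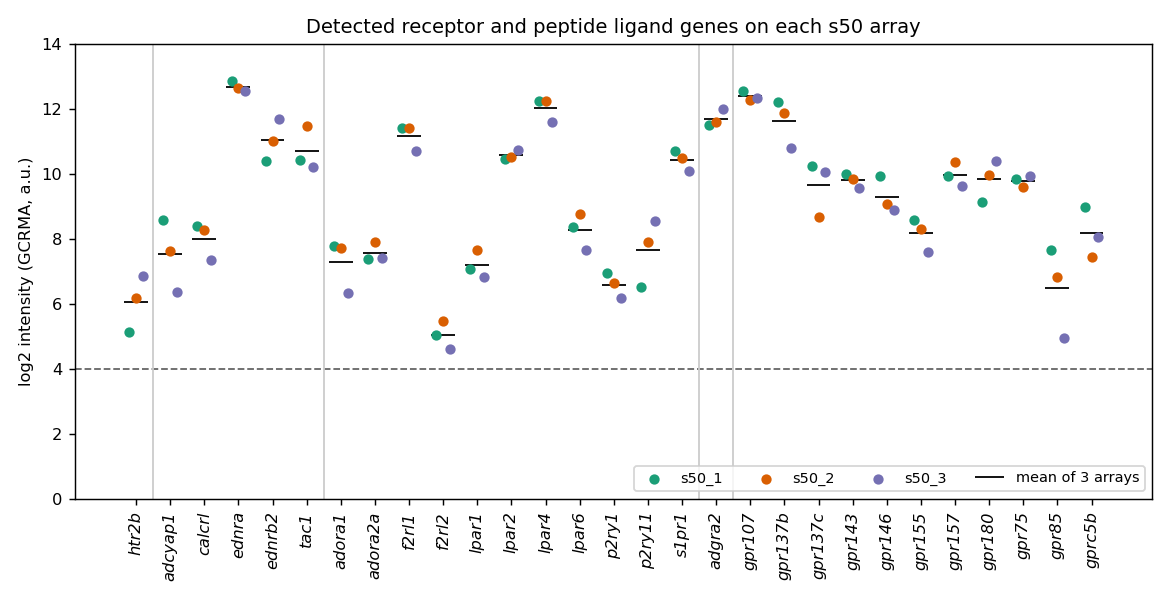
Log2 intensity (a.u.) of the 29 detected receptor and peptide ligand genes on s50_1, s50_2 and s50_3, each through its brightest Xl-PSID; the short line is the mean of the 3 arrays, the dashed line the threshold of 4, and grey lines part the families. *htr2b*, *ednrb2* and *p2ry11* are highest on s50_3, and *adcyap1*, *adora1* and *gpr85* are lowest there.

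Alpha subunits of the Gs, Gi and Gq types were detected. *gnas*, the stimulatory subunit, read 13.21, 13.04 and 12.23 (12.83 ± 0.52), and *gnal*, its relative of mammalian olfactory neurons and striatum, read 11.04, 10.77 and 10.06 (10.62 ± 0.50). Both were highest on s50_1 and lowest on s50_3. The inhibitory subunits were all detected. *gnai1* read 12.01, 12.17 and 11.69 through S and 11.75, 11.64 and 10.89 through L, *gnai2* averaged 11.52 ± 0.22, and *gnai3*, which the mouse hair bundle needs, read 10.72, 10.85 and 8.88. In *gnai3* the difference of s50_3 from the other arrays was -1.90. *gnao1*, a subunit of neurons, read 5.70, 5.31 and 4.18.

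The Gq class was represented by *gna11* (11.90 ± 0.32), *gnaq* (11.20 ± 0.56 on its brightest Xl-PSID) and *gna14*. *gna14.L* read 11.67, 11.64 and 10.04, and the S homeolog 9.10, 8.80 and 8.17, both lowest on s50_3. *gna15*, of blood cells in mammals, was not detected (2.04 ± 0.04). Neither was *gna13*, of the G12 and G13 type (2.75 ± 0.05), nor the transducins of rods and cones, *gnat1* (1.91 to 1.93 over 3 Xl-PSIDs) and *gnat2* (1.88 ± 0.01). *gna12* had no Xl-PSID under that symbol.

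Beta and gamma subunits were detected for 7 of 10 genes (70.0%), and the median SD of their detected Xl-PSIDs was the largest of the families. It was 0.96, against 0.47 for all detected Xl-PSIDs. Of the 15 detected Xl-PSIDs 9 had a range of at least 1.5, against 24.8% of all. On s50_3 12 of them were lowest, against 35.9% of all. Several of the 15 are of the same gene, as the 3 of *gng7* are. *gnb1*, which dimerizes with most gamma subunits, read 12.94, 12.69 and 10.95 on an Xl-PSID and 10.25, 8.69 and 8.05 on another. *gnb4* read 10.79, 9.90 and 9.76 through its brightest S Xl-PSID and 10.16, 9.13 and 9.06 through L. In these 4 Xl-PSIDs s50_1 was the highest array and s50_3 the lowest, while a dimmer *gnb4.S* Xl-PSID, at 8.14, 6.57 and 6.94, was highest on s50_1 and lowest on s50_2.

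The gamma subunit *gng7*, which pairs with *gnal* in the mammalian striatum, was above the threshold on s50_1 through all 3 of its Xl-PSIDs. *gng7.S* read 7.83, 7.70 and 4.93, and the *gng7.L* Xl-PSIDs read 7.25, 5.95 and 2.91, and 7.28, 3.57 and 2.77. On s50_3 both L Xl-PSIDs had dropped under 4, and the differences of s50_3 from the other arrays were -2.65, -2.84 and -3.69. *gng2* read 9.17, 7.87 and 6.76 (7.93 ± 1.21). *gng13*, of taste cells and retinal bipolar cells in mammals, read 7.70 on s50_1 but 2.01 and 1.92 on s50_2 and s50_3, so its mean of 3.88 missed the threshold through 2 arrays at the floor.

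Against that direction stood *gnb3*, the beta subunit of cone transducin. *gnb3.S* read 6.65, 8.47 and 8.05 and *gnb3.L* 2.86 on s50_1 and 6.06 on s50_2, both lowest on s50_1 and highest on s50_2. *gng5* (12.16, 12.39 and 11.49 on its brightest Xl-PSID) and *gng10* (10.39 ± 0.19) were detected as well, and *gng12* (2.91 ± 0.47) and *gng4* (2.38 ± 0.45) were not.

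RGS proteins were detected for 10 of 18 genes (55.6%). *rgs5*, a marker of pericytes in mammals, read 12.53, 12.79 and 12.92 (12.74 ± 0.20). *rgs6.L*, of the R7 subfamily, read 12.19, 11.84 and 11.73, while its S Xl-PSID was at the floor (2.09 ± 0.05). *rgs2*, an inhibitor of Gq, read 10.95, 11.72 and 11.28 through L and 10.01, 10.71 and 10.69 through S, lowest on s50_1 for both. *rgs5* varied little between arrays. The other detected smooth muscle and pericyte markers, *acta2*, *myh11* and *tagln*, were lowest on s50_1 and highest on s50_3, as *rgs5* was. So were 33.0% of all detected Xl-PSIDs, and the part of such cells in the *rgs5* values was not tested.

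Opposite directions were seen within this family. *rgs4*, an RGS protein of neurons, read 9.93, 8.45 and 6.91 on its brightest Xl-PSID (8.43 ± 1.51), and *rgs20*, of the RZ subfamily, read 6.67, 5.68 and 1.88 (4.75 ± 2.53). Both were highest on s50_1, and *rgs20* was at the floor on s50_3. *rgs19* read 8.26, 9.33 and 9.90 through L and 6.29, 7.49 and 8.30 through S, and *rgs10.L* read 5.65, 7.32 and 7.86, all lowest on s50_1 and highest on s50_3. *rgs10* is strongly expressed in microglia of mammals, and 3 of 4 detected leukocyte markers, *coro1a*, *lcp1* and *mpo*, had the same order, as had 33.0% of all detected Xl-PSIDs. The other, *cd74*, was the brightest and read 10.98, 11.42 and 10.95, highest on s50_2 and lowest on s50_3. Summed linear intensities over the 5 measured markers were 2130, 3090 and 2500, with *ptprc* at the floor (2.03 ± 0.04). The part of leukocytes in the *rgs10* values was not tested.

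*rgs1* (6.18 ± 0.60), which is known from lymphocytes, *rgs12* (4.91 ± 0.34) and the anchor protein gene *rgs9bpl* (8.33 ± 0.56 on its brightest Xl-PSID) were also detected. The 8 RGS genes and partners not detected were *rgs11*, *rgs14*, *rgs18*, *rgs3*, *rgs7bp*, *rgs8*, *rgs9bp* and *rgs9bp-c*, with means of 1.98 to 3.42 on their brightest Xl-PSIDs. Of these *rgs3* passed 4 on s50_1 alone (4.47, 2.80 and 3.00).

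Kinases and arrestins were detected for *grk4*, *grk6* and *arrb2*, 3 of 6 genes (50.0%). *grk4* read 10.86, 11.12 and 11.24 on its brightest Xl-PSID. All 4 of its Xl-PSIDs were lowest on s50_1 and highest on s50_3, as were 33.0% of all detected Xl-PSIDs. Within each homeolog their names differ only in the suffix, so they are not 4 separate readings. *grk6*, a kinase that marks activated receptors for arrestins, averaged 9.82 ± 0.64. *arrb2*, an arrestin that also links receptors to endocytosis, read 12.20, 12.36 and 11.99 on an S Xl-PSID (12.18 ± 0.19), with the arrays close together. Another, whose name differs only in the suffix, read 8.51, 8.50 and 6.44, lowest on s50_3. A further S Xl-PSID read 7.23, 5.97 and 6.07, lowest on s50_2. The remaining S Xl-PSIDs averaged 4.74 ± 0.35 and 2.79 ± 1.11. An L Xl-PSID read 10.55, 9.90 and 3.09 (7.85 ± 4.13), so it was bright on s50_1 and s50_2 and below the threshold on s50_3. *arrb1* was at the floor (1.93 ± 0.01), and so were cone arrestin, *arr3* (1.98 ± 0.03), and a receptor kinase of photoreceptors, *grk1* (2.03 ± 0.04 for S).

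None of the 4 adenylyl cyclase genes with an Xl-PSID was detected on any array. *adcy6* (2.64 ± 0.31), *adcy8* (2.55 ± 0.24), *adcy7* (2.10 ± 0.02) and *adcy9* (1.92 ± 0.07) are given through their brightest Xl-PSIDs, and all 7 Xl-PSIDs averaged under 3. *adcy1*, needed for hearing in humans and mice, had no Xl-PSID under that symbol.

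Enzymes that break down cyclic nucleotides were detected for 7 of 10 genes (70.0%). Those specific for cyclic AMP were *pde7a*, at 10.80, 10.43 and 9.12 (10.12 ± 0.88), *pde4b*, at 10.41, 9.46 and 9.23 on its brightest Xl-PSID, and *pde4a* (9.67 ± 0.23). *pde7a* and *pde4b* were highest on s50_1 and lowest on s50_3, and the dimmer *pde4b* Xl-PSID, at 8.54, 7.77 and 5.72, had the same order. *pde5a*, which is specific for cyclic GMP and the target of sildenafil, averaged 8.85 ± 0.24. *pde3b* (7.62 ± 0.71) and the calmodulin-dependent *pde1b* (5.81 ± 0.29) were detected too. *pde9a*, also specific for cyclic GMP, was at the floor on s50_1 and s50_2 (2.07 and 2.25) and read 4.97 on s50_3.

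Members of the photoreceptor cascade were mostly not detected. Of 8 measured members on the retina and pineal list, *arr3*, *gnat1*, *gnat2*, *grk1*, *pde6b* and *pde6h* were not detected, and *gnb3* and *pde6g* were. *pde6g.S* read 4.55, 5.07 and 4.33, and its L Xl-PSID averaged 1.96 ± 0.02. *pde6b*, a catalytic subunit of the rod enzyme, averaged 2.16 ± 0.22. *pde6h.L* read 5.69 on s50_2 and 2.07 and 2.20 on s50_1 and s50_3. Of 12 measured photoreceptor genes outside the members, *gngt1* was detected (10.77 ± 0.79), and the other 11, with *sag* and *rbp3* among them, had means of 1.85 to 2.31.

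By spelling alone the rule also took in *gpr89b*, a Golgi pH regulator (12.21 ± 0.41), *htr3a*, a serotonin-gated ion channel (1.93 ± 0.01), and *pde12*, a mitochondrial enzyme of RNA turnover (2.49 ± 0.17). They are counted among the 120 genes and left out of the families above.

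A list of effectors and partners outside the rule had 28 measured genes, and 24 of them (85.7%) were detected, near the 80.5% of all genes. The catalytic subunits of protein kinase A averaged 12.07 ± 0.31 (*prkaca*) and 12.15 ± 0.27 (*prkacb*) and its target *creb1* 11.48 ± 0.75. Downstream of Gq, *plcb3*, a phospholipase C, averaged 14.35 ± 0.28 and the calcium channel *itpr1* 10.66 ± 0.48. The related *plcb1* (4.72 ± 1.63) and *plcb4* (4.54 ± 1.28) lay near the threshold, and both were below 4 on s50_2. *ric8a*, a chaperone of alpha subunits, averaged 9.22 ± 0.31 and *gpsm1*, which binds Gi, 9.41 ± 0.96.

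The 4 partners not detected were *gpsm2*, which carries Gi to the bare zone of mouse hair cells (1.97 ± 0.02), *cnga1* (2.18 ± 0.05), *guca1a* (1.90 ± 0.02) and *kcnj5* (1.91 ± 0.01). *gucy1b1*, a subunit of soluble guanylyl cyclase, read 11.14, 10.21 and 6.72 (9.36 ± 2.33), highest on s50_1 and lowest on s50_3.

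Detection depended on the Xl-PSID for a number of genes. Of the 43 genes with several Xl-PSIDs, 18 had all of them detected, 12 had none, and 13 had Xl-PSIDs on both sides of the threshold. In 12 of the 13 these means differed by at least 3: *adora2a*, *arrb2*, *gna14*, *gnb3*, *gng5*, *gprc5b*, *p2ry11*, *rgs1*, *rgs10*, *rgs4*, *rgs6* and *rgs9bpl*. *arrb2* spanned the most Xl-PSIDs, 7, with means from 1.87 to 12.18. Within *gna14.L* an Xl-PSID averaged 11.11 ± 0.94 and another 2.67 ± 0.13. For 77 of the 120 genes the call rests on 1 Xl-PSID. The same counts were not taken over all genes. Besides, 18 members can match several transcripts by their suffix, and 8 further Xl-PSIDs with several symbols, 1 of them in the rule, were left out.

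Homeologs were compared where both had an Xl-PSID. Of 29 such genes, both were detected in 18 (62.1%), against 76.6% of 2009 pairs over all genes, neither in 5 (*drd2*, *gnat1*, *gpr160*, *grk1* and *pde6h*) and 1 of them in 6 (*adora2a*, *p2ry11*, *pde6g*, *rgs1*, *rgs10* and *rgs6*). Taking the brightest Xl-PSID of each, the 18 pairs had the same lowest array in 16 (88.9%), against 62.4% of all pairs with both detected, and the same highest array in 11 (61.1%), against 61.6%. Some of these Xl-PSIDs, such as those of *gnb4.S*, *gng5.S*, *gnb3.S* and *grk4*, can match several transcripts by their suffix, and whether they read both homeologs was not tested. Without such Xl-PSIDs, 17 pairs had both detected and 14 of these had the same lowest array (82.4%), against 63.1% of all. The exceptions in the lowest array were *gnaq* and *gpr143*. For *rgs19*, L and S ran in the same order over the arrays at different intensities, as did the homeologs of *gng7*, *gnb4*, *gna14* and *grk4*.

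**Figure D4:**
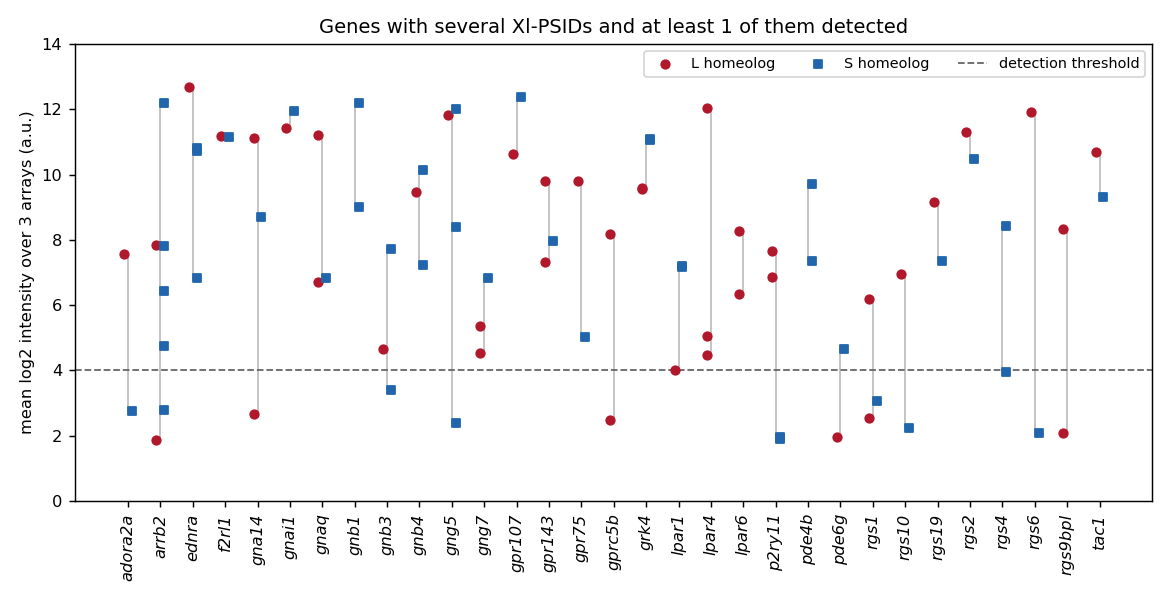
Mean log2 intensity (a.u.) over the 3 *s50* arrays of every Xl-PSID of the genes with several Xl-PSIDs and at least 1 detected; circles are L and squares S homeologs, the dashed line is the threshold of 4, and a line joins the Xl-PSIDs of a gene. *arrb2*, *rgs6* and *gna14* lie on both sides of the threshold, and *f2rl1* and *gnai1* have L and S close together.

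The spread of detected members between the pools was described by SD and range. Their median SD was 0.56, against 0.47 for all detected Xl-PSIDs, and 32 of 103 (31.1%) had a range of at least 1.5, against 24.8%. That count was 11 without s50_1, 27 without s50_2 and 13 without s50_3. A range over fewer arrays cannot exceed that over all of them, so the lower counts do not by themselves show dependence on an array. Without an array, the counts were not taken over all detected Xl-PSIDs. Spread falls with intensity, and within bins of intensity the share of members was not always the higher: at means of 4 to 6 the share was 50.0% of 14 members and 55.4% of all, at 6 to 8 it was 57.1% of 28 and 45.8%, at 8 to 10 it was 20.8% of 24 and 30.5%, and from 10 upward 10.8% of 37 and 10.6%.

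The direction of the spread was less even. Highest on s50_1 and lowest on s50_3 were 43 of the 103 detected members (41.7%), against 22.6% of all detected Xl-PSIDs, and the opposite order was seen in 20 (19.4%), against 33.0%. The median difference of s50_3 from the mean of the other arrays was -0.48 for members and 0.08 for all detected Xl-PSIDs, and that of s50_1 was 0.33 and -0.09. The listed effectors and partners outside the rule leaned the same way, so the lean was not particular to the members. Of their 24 detected genes 13 were highest on s50_1 and 14 lowest on s50_3, while 8 were highest on s50_3 and 4 lowest on s50_1. Their median differences were 0.25 on s50_1 and -0.36 on s50_3. After quantile normalization 39 members (37.9%) had the order from s50_1 down to s50_3, against 21.8% of all. With a difference of at least 1 between those arrays as a further condition there were 29 (28.2%), against 13.0%. In each bin of intensity the share among members was above that among all, from 35.7% and 21.7% at means of 6 to 8 to 50.0% and 21.1% at means of 4 to 6.

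This order was found in several families. It was seen in 8 of 13 detected alpha subunit Xl-PSIDs and in 8 of 15 of beta and gamma, the last of 4 genes (*gnb1*, *gnb4*, *gng2* and *gng7*). Phosphodiesterases had it in 4 of 8, kinases and arrestins in 4 of 10 and RGS proteins in 3 of 12. Those of kinases and arrestins were of *arrb2* and *grk6* alone. In 1 of the *arrb2* Xl-PSIDs s50_1 and s50_2 tied at 4.94, and s50_1 was taken as the highest. Over all detected Xl-PSIDs the share was 22.6%, so that of RGS proteins lay near it. The opposite order was seen in 4 kinase and arrestin Xl-PSIDs, all of *grk4*, and in 4 RGS Xl-PSIDs. It was seen in 1 alpha subunit, 1 phosphodiesterase and 0 beta and gamma subunit Xl-PSIDs. Over the intracellular families the order from s50_1 down to s50_3 came to 27 of 58, and the opposite order to 10. Among receptors and peptide ligands the order from s50_1 down to s50_3 was seen in 16 of 44. It was 4 of 9 in the peptide family, 7 of 18 among nucleoside, nucleotide, lipid and thrombin receptors and 5 of 15 among orphan and class C receptors. The opposite order was seen in 9 of the 44, against 33.0% of all detected Xl-PSIDs. These family counts were not tested against each other. In beta and gamma subunits the median difference was 1.06 on s50_1 and -1.29 on s50_3.

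Larger departures of an array had the same sides. At least 1.5 above the other arrays on s50_1 were 13 detected members (12.6%), against 6.99% of all, and at least 1.5 below them on s50_3 were 16 (15.5%), against 8.71%. At least 1.5 below on s50_1 were 6 (5.83%), against 4.95%, and at least 1.5 above on s50_3 were 0, against 4.39%. On s50_2 there were 2 above and 1 below, counts that were not taken over all detected Xl-PSIDs. Beta and gamma subunits were the only family with 3 or more on the same array and side: 5 were high on s50_1 (all 3 Xl-PSIDs of *gng7*, *gng2* and a *gnb1* Xl-PSID) and 5 were low on s50_3 (the same *gng7* and *gng2* Xl-PSIDs and the other *gnb1* Xl-PSID).

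Some marker lists of other cell types also moved between the arrays, and others moved less. Of the 10 detected ganglion neuron markers out of 11 measured, 6 were highest on s50_1, against 31.7% of all detected Xl-PSIDs. Lowest on s50_3 were 5, against 35.9%. The other way, 2 were lowest on s50_1 and 2, *nefl* and *nefm*, highest on s50_3. The median difference of the 10 was 0.55 on s50_1 and -0.57 on s50_3, with summed linear intensities of 73900, 55900 and 40900. *elavl3*, a defining neuronal marker, read 5.86 on s50_1 and 2.59 and 2.92 on the others, and so was not detected. All 4 detected supporting cell and otic matrix genes were lowest on s50_3 (median difference -1.14, sums of 50600, 43500 and 30000). Skeletal muscle genes ran the other way, with all 10 lowest on s50_1, against 44.8% of all detected Xl-PSIDs (sums of 59300, 115000 and 131000). Sums differed less for Schwann cell (42900, 42400 and 43400) and cartilage genes (96400, 92500 and 87700). The same held for the sums of erythroid genes (113000, 112000 and 108000) and otic transcription factors (10600, 10900 and 11000). Such sums rest mostly on the brightest genes. Of the 7 detected otic transcription factors 4 were highest on s50_1, with a median difference of 0.55 there, and 2 were highest on s50_3. Of the 5 detected erythroid genes 4 were lowest on s50_3, with a median difference of -0.09 there. Sums over the endothelium list were 8100, 6670 and 5910. *myo6*, the only hair cell gene measured, was highest on s50_3 and lowest on s50_2. Labelling started from less RNA for s50_3, and pools differed in animal number. The part of cell makeup, RNA input or pool size in the order of the members was not tested.

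**Figure D5:**
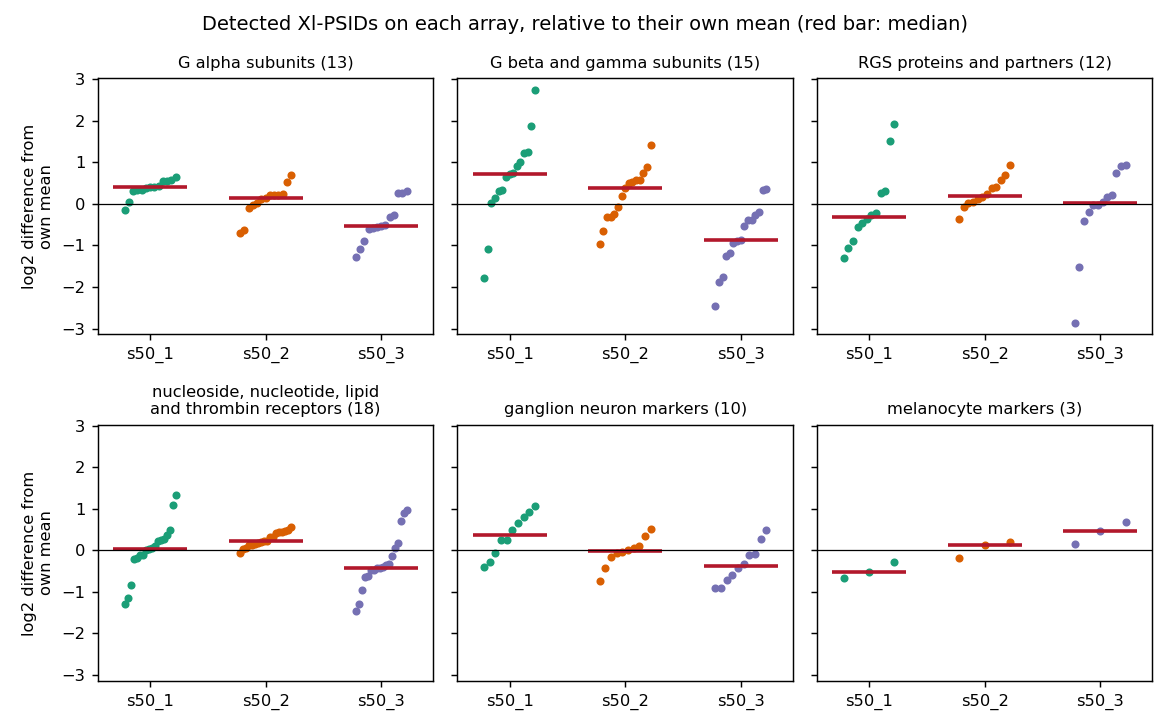
Log2 intensity of each detected Xl-PSID on s50_1, s50_2 and s50_3 minus its own mean over the 3 arrays, for 4 families of members and for the ganglion neuron and melanocyte markers, which are genes outside the members through their brightest Xl-PSIDs; points are Xl-PSIDs or genes, numbers in the panel titles count them, and red bars are medians. Alpha, beta and gamma subunits and neuron markers are mostly above 0 on s50_1 and below it on s50_3, whereas melanocyte markers are below 0 on s50_1.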

How the data were processed

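Members and gene lists were chosen with earlier results of these data known, and the values are descriptive. The authors hybridized RNA of 3 *s50* pools to Affymetrix *X. laevis* Genome 2.0 arrays and preprocessed them by GCRMA (JMP Genomics 5.0). The deposited log2 intensities were used without further normalization. Whether GCRMA covered these arrays alone or those of every age, and a genome build, are not given in the sources used here, so no coordinates or sequences are given. Symbols came from the platform annotation through the gene identifier (189 of 189 members matched, 0 renamed). A gene took the value of its brightest Xl-PSID. Detection required a mean of at least 4, and arrays were compared by the range and by the difference from the mean of the other arrays. Arrays give no counts, and their number limits the precision.

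The genes named were, in each family, the 4 brightest, those not detected, the most variable, those with Xl-PSIDs on both sides of the threshold, homeolog pairs, and genes known from the ear. Of 40 of the last kind 22 had a member. Genes outside this rule were named after their values were seen, to account for the members. Alternatives were thresholds of 3 and 5, detection on every array, the median, quantile normalization, averaging all Xl-PSIDs of a gene, members without Xl-PSIDs of several transcripts, other ranges and leaving out each replicate. Those for the order from s50_1 down to s50_3 and for the homeolog pairs were chosen after seeing the data. Python 3.11.15 with pandas 2.3.3 was used, and the scripts were tested on simulated data.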

Additional observations from a re-analysis of the deposited data

How the results depend on the processing

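The count of 32 detected members with a range of at least 1.5 depended on its definition: it was 56 with a range of at least 1 and 81 with a plain 1.5-fold. Neither these counts nor those without a replicate were taken over all detected Xl-PSIDs, so they do not set the members apart. Leaving out a replicate gave 11 without s50_1, 13 without s50_3 and 27 without s50_2. A range over 2 arrays cannot exceed that over 3, so these lower counts do not by themselves show dependence on a replicate. Under the alternatives that kept all 189 members, 95 to 112 of them were detected. With the Xl-PSIDs that can match several transcripts left out, 88 of the remaining members were. Of the 120 genes 63 to 72 were detected, and with L and S apart 84 of 149 symbols were. The counts of each family stayed within 1.5 times. Calls crossed the threshold for *gng13* (4.81 without replicate 2, 4.86 without replicate 3), *p2ry13* (4.31 without replicate 1, 4.17 without replicate 3), *p2ry4* (4.17 by the median, 4.38 without replicate 1) and *rgs20* (3.78 without replicate 1). The order from s50_1 down to s50_3 was seen in 29 to 43 members or genes under the settings tried, which differ in how many were counted. It was seen in 30 of 66 genes through their brightest Xl-PSID. Without Xl-PSIDs of several transcripts it was seen in 35 of 88 members, and among those detected on every array in 37 of 96. For these settings the share over all was not taken. No paired analysis was possible because the arrays are of 1 condition. Signal at the floor limits what can be said of the 54 genes not detected, and with 3 arrays no outlying array was tested for.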
